A study of Mus musculus with 6 samples.

Results

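The transcripts examined here encode the hypoxia-inducible factors (HIFs) and the enzymes that hydroxylate them. They are 9 genes, chosen by name: the HIF subunits Hif1a, Epas1, Arnt and Arnt2, the prolyl hydroxylases Egln1, Egln2 and Egln3, the asparaginyl hydroxylase Hif1an, and Vhl. Every probe set annotated to one of them was taken, which gave 24 of the 45037 probe sets tested and 9 of the 18193 genes that have a probe set of their own. All 24 were annotated to a single gene.

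MC3T3-E1, a mouse osteoblastic line here represented by 1 subclone, either received 50 µg of ascorbic acid (AA) or went untreated as control, and both were kept for 5 days in 6-well plates with regular changes of medium. The labels give the AA dose without a volume, and the study's methods give it per ml. Total RNA of 3 AA-treated and 3 control cultures was hybridized to 1 Affymetrix whole-genome mouse array each, so 6 arrays were compared. The labels do not say whether the 3 cultures of a group came from separate experiments, and the paper speaks both of triplicate experiments and of wells in triplicate, so p-values measure the spread between these cultures only.

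The HIF-alpha subunits Hif1a and Epas1 are made continuously and are destroyed while oxygen is plentiful. The Egln enzymes hydroxylate prolines of the alpha subunits, which marks them for the ubiquitin ligase that contains Vhl, and Hif1an hydroxylates an asparagine that the co-activators of transcription need unmodified. These enzymes use oxygen, 2-oxoglutarate and iron, and ascorbate helps to keep that iron in its reduced form, as it does in the prolyl hydroxylases of collagen. An array reads messenger RNA alone, so neither hydroxylation nor the amount of HIF protein was measured.

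No transcript of the 9 genes passed the test in AA-treated cells. At an adjusted p under 0.05 from limma, a linear model fitted across all probe sets, 0 of the 24 were called, against 5.20% of all 45037 probe sets (2.71% higher and 2.50% lower in AA). By the brightest probe set of each gene, 0 of 9 were called, against 7.89% of all genes (4.06% higher and 3.83% lower). Before adjustment, 7 of the 24 probe sets had a p under 0.05, which is 29.2% against 18.0% of all. Of these, 3 were higher (12.5%, against 8.58%) and 4 lower in AA (16.7%, against 9.41%). In a fit with no replicate block the count was 3 of the 24 (12.5%, against 17.3% of all), and without replicate 3 it was 2 (8.33%, against 16.8%), so whether the share stood above or below the background depended on the fit. The methods' paired t-test put 0 of 24 under an unadjusted p of 0.01, against 3.20% of all probe sets. On the deposited signals the AA and control arrays did not overlap for 4 of the 24 (16.7%, against 22.8% of all), 1 of them higher (background 11.0%) and 3 lower in AA (background 11.8%). The 13 that were brighter on average than the median probe set included 2 without overlap (15.4%, against 34.1%).

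For 6 genes the brightest probe set gave a narrower interval than for Egln3, Epas1 and Arnt2. The 95% intervals of the fold, AA over control, of Hif1a, Arnt, Egln1, Egln2, Hif1an and Vhl all lay between 0.751 and 1.57. Among these, the intervals of Hif1an (1.04 to 1.57) and Vhl (0.751 to 0.996) left out a fold of 1, though neither passed after adjustment. The brightest Egln3 probe set lay just above the median signal and had a wider interval, and Epas1 and Arnt2 were read only by probe sets below it. No present or absent calls came with the signals, so none of these transcripts is called absent.

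**Figure D1:**
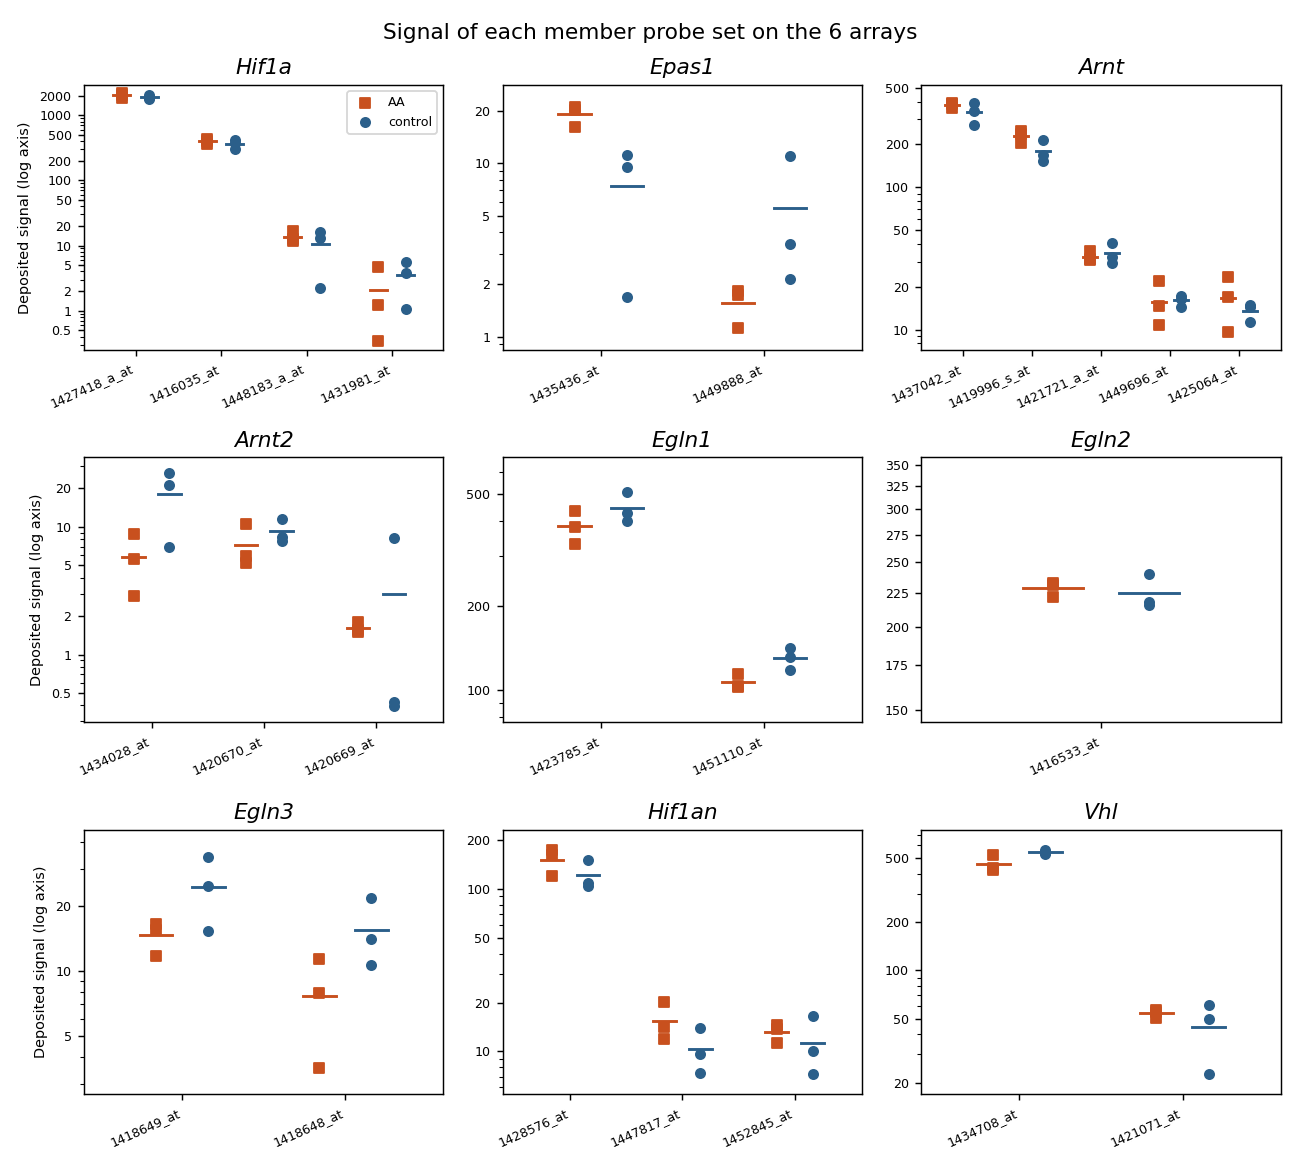
Deposited signal (log axis) of every probe set of the 9 genes, 1 panel per gene, with probe sets ordered by mean log2 signal. Squares are the 3 AA arrays, circles the 3 control arrays and short lines the group means. The brightest Hif1a probe set averages 2024 in AA and 1894 in control cells, while the Epas1 probe sets stay at 1.12 to 21.3 in AA and 1.69 to 11.2 in control cells.

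The arrays were similar in scale, with a median deposited signal of 16.2 to 16.9 in AA and 14.9 to 17.7 in control. Control replicate 3 had the highest ratio of 3' to 5' signal for both quality-control transcripts, 0.920 for Gapdh and 1.79 for actin, against 0.791 to 0.809 and 1.35 to 1.45 on the other 5 arrays. The summed signal of 5 osteoblast markers, all brighter than the median probe set, was 19279 to 24875 in AA and 15227 to 18173 in control. Most of that sum came from Col1a1 and Col1a2, which did not pass (adjusted p = 0.417 and 0.804), nor did Sp7 (adjusted p = 0.235). Alpl (log2 difference 1.52, adjusted p = 0.000464) and Ibsp (1.53, adjusted p = 0.000549) were higher in AA. Bglap and Runx2, also chosen as markers, had no single-gene probe set here. Of 4 white blood cell markers, Csf1r alone was brighter than the median (log2 difference 1.81, adjusted p = 0.00168), Ptprc and Cd3e did not exceed 3.92, and the sum of the 4 was 96.0 to 118 in AA and 36.2 to 43.5 in control. None of 3 endothelial markers (summed signal 17.9 to 25.5 in AA and 20.0 to 27.1 in control) and none of 2 adipocyte markers (7.59 to 11.0 in AA and 3.10 to 9.09 in control) was brighter than the median. Of 3 chondrocyte markers 2 were, and their sum was 423 to 523 in AA and 318 to 388 in control, with Col2a1 higher in AA (log2 difference 1.18, adjusted p = 0.00352). Of 3 muscle markers 1 was, with sums of 48.2 to 50.1 in AA and 43.0 to 65.4 in control. The part of these transcripts in the values below was not tested.

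Hif1a, the oxygen-labile subunit of HIF-1, was read by 4 probe sets. The brightest, 1427418_a_at, had signals of 2191, 2024 and 1857 in AA-treated cells and 1834, 1766 and 2081 in control cells. The groups overlapped, since the highest control exceeded 2 of the AA values. The log2 difference, AA minus control, was 0.045 (SE 0.085, 95% interval -0.15 to 0.24, adjusted p = 0.853), an interval that corresponds to folds of 0.901 to 1.18. The second, 1416035_at, had signals of 399, 358 and 432 in AA and 419, 369 and 301 in control. AA and control overlapped here too, with a log2 difference of 0.18 (SE 0.12, 95% interval -0.11 to 0.46, adjusted p = 0.525). Pairs, here and below, join same-numbered cultures, and the numbers were not shown to pair the cultures. By pair the differences were -0.014, 0.0051 and 0.54. Only the pair with the low control replicate 3 stood away from 0, and without replicate 3 the estimate was -0.0044. The third, 1448183_a_at, lay below the median signal and showed the same arrangement, with pair differences of -0.068, -0.099 and 2.37. The last, 1431981_at, had signals of 0.336 to 4.67 in AA and 1.04 to 5.63 in control, where no direction could be read. Averaged over the 4 probe sets, the log2 difference of Hif1a was -0.072 (SE 0.15, adjusted p = 0.868).

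The single-gene probe sets brighter than the median whose log2 signals followed those of the brightest Hif1a probe set most closely belonged to Ttc13 (Pearson r = 0.994), Mrpl1 (r = 0.986) and Ccny (r = 0.985). They are the closest of 19699 candidates over only 6 arrays and are given as a description.

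Epas1, the alpha subunit of HIF-2, was read by 2 dim probe sets that pointed in opposite directions. The brighter, 1435436_at, had signals of 16.3, 21.3 and 20.5 in AA-treated cells and 1.69, 11.2 and 9.50 in control cells. All 3 AA arrays lay above all 3 control arrays. The log2 difference was 1.73 (SE 0.53, 95% interval 0.51 to 2.95, adjusted p = 0.122), with pair differences of 3.18, 1.02 and 0.99, and with 50 added to every signal it shrank to 0.27 (adjusted p = 0.0707). The other, 1449888_at, had signals of 1.12, 1.83 and 1.73 in AA and 3.43, 2.16 and 11.0 in control. Here every AA array lay below every control array, with a log2 difference of -1.55 (SE 0.79, 95% interval -3.36 to 0.27, adjusted p = 0.364). Averaged over both, it was 0.092 (SE 0.53, adjusted p = 0.958), so these arrays settled no direction for Epas1.

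Arnt, the constitutive partner with which both alpha subunits bind DNA, was read by 5 probe sets. The brightest, 1437042_at, had signals of 362, 383 and 393 in AA-treated cells and 345, 390.3 and 272 in control cells. The groups overlapped through control replicate 2, and the log2 difference was 0.23 (SE 0.12, 95% interval -0.042 to 0.49, adjusted p = 0.368). The next, 1419996_s_at, had signals of 248, 203 and 236 in AA and 169.9, 213 and 154 in control. AA was higher in pairs 1 and 3 and level in pair 2, and the log2 difference was 0.39 (SE 0.14, 95% interval 0.066 to 0.72, adjusted p = 0.188). Its suffix marks probes that may also match transcripts of other genes. Without replicate 3 the estimates for these probe sets were 0.069 and 0.28. The remaining 3 had signals of 9.65 to 35.4 in AA and 11.3 to 40.8 in control, and log2 differences of -0.071, -0.12 and 0.18. Of these, 1449696_at, at -0.12, was designed from the same sequence record as 1419996_s_at. Averaged over the 5 probe sets, the difference was 0.12 (SE 0.15, adjusted p = 0.740).

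Arnt2, a paralogue of Arnt best known from the nervous system, was read by 3 probe sets, all below the median signal. The brightest, 1434028_at, had signals of 2.88, 8.87 and 5.61 in AA-treated cells and 6.91, 21.1 and 26.3 in control cells. It was lower in AA in all 3 pairs, although the AA value of replicate 2 exceeded control replicate 1. The log2 difference of -1.64 (SE 0.45, 95% interval -2.69 to -0.60, adjusted p = 0.0854) had the lowest adjusted p of the 24. It was also the only one of the 24 (4.17%) with a fold of 1.5 or more and an unadjusted p under 0.01 from limma. Of all probe sets, 4.39% met these thresholds. With 50 added to every signal the estimate was -0.28 (adjusted p = 0.122). The other Arnt2 probe sets, both designed from 1 sequence record, had log2 differences of -0.47 (SE 0.50, adjusted p = 0.704) and 0.50 (SE 1.09, adjusted p = 0.876). The bright single-gene probe sets that followed 1434028_at most closely belonged to Zfp644 (r = 0.997), Tef (r = 0.996) and Ptx3 (r = 0.994), again over 6 arrays and as a description.

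Among the prolyl hydroxylases, Egln1 encodes PHD2, the main hydroxylase of HIF-1 alpha in most cells, and Egln3 encodes PHD3, and both are themselves known as HIF target genes. Their 4 probe sets had a lower mean in AA-treated cells, in all 3 pairs, and none passed the test. Since these were the hydroxylases with 1 sign throughout that HIF is known to induce, their promoter windows are shown, 250 bases before to 50 bases after the transcription start, from RefSeq (GRCm38.p6). Capitals mark the core letters of the hypoxia response element, ACGTG or GCGTG on either strand, with overlapping matches joined into 1 stretch. The Egln1 window is chr8:124949205-124949504 and the Egln3 window chr12:54203825-54204124, both on the minus strand.
Egln1: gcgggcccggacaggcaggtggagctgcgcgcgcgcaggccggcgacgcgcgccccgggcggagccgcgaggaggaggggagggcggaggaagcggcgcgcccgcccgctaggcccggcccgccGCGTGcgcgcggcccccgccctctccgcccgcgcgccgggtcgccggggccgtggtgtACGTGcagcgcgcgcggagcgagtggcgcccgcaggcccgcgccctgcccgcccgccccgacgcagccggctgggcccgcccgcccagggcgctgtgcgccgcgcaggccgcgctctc
Egln3: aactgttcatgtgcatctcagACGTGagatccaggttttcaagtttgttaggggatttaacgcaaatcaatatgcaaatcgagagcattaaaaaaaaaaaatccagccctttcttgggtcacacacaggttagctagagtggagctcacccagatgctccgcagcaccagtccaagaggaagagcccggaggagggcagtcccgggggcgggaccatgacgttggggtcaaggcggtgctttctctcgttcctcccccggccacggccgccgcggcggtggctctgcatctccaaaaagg

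The Egln1 window held 2 such stretches and the Egln3 window 1. The Hif1a window held 2, the Arnt window 1 and the Egln2 windows 1 and 5, while those of Arnt2, Hif1an and Vhl held 0. Any link between the stretches and the changes was not tested. Of the 9 genes, 8 had a window in the table used, all but Epas1, and windows of 5 genes held the letters (Hif1a, Arnt, Egln1, Egln2 and Egln3). Counted by window, 6 of the 9 windows of these genes held at least 1 stretch. Such short letters are common, and 43.8% of all 32851 windows held at least 1. A match describes the sequence and does not show binding.

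Egln1 had signals of 437, 332 and 382 in AA-treated cells and 507, 429 and 399.8 in control cells on its brightest probe set, 1423785_at. The groups overlapped, and the log2 difference was -0.18 (SE 0.090, 95% interval -0.39 to 0.029, adjusted p = 0.358). On the second, 1451110_at, designed from the same sequence record, the signals were 114, 102 and 103 in AA and 118, 131 and 141 in control. All 3 AA arrays lay below all 3 control arrays there, with a log2 difference of -0.26 (SE 0.13, 95% interval -0.57 to 0.044, adjusted p = 0.360). Averaged over both, the difference was -0.22 (SE 0.092, adjusted p = 0.258).

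Egln3 was dim, its brightest probe set 1418649_at reading 11.8, 16.6 and 15.6 in AA-treated cells and 15.4, 24.8 and 34.1 in control cells. The groups overlapped at the lowest control array, and the log2 difference was -0.75 (SE 0.31, 95% interval -1.46 to -0.036, adjusted p = 0.252). The other, 1418648_at, from the same sequence record, had signals of 7.95, 3.56 and 11.4 in AA and 14.0, 10.7 and 21.8 in control. Its pair differences were -0.98, -1.51 and -0.99, and the fit gave -1.16 (SE 0.41, 95% interval -2.11 to -0.22, adjusted p = 0.176). Averaged over both, the difference was -0.95 (SE 0.30, adjusted p = 0.140), the lowest adjusted p of the 9 genes by that measure. With 50 added to every signal the estimates were -0.21 and -0.19.

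Egln2, which encodes PHD1, was read by 1 probe set, 1416533_at, with signals of 231, 233 and 222 in AA-treated cells and 239.9, 218 and 215 in control cells. The AA values lay inside the control range. The log2 difference was 0.054 (SE 0.097, 95% interval -0.17 to 0.28, adjusted p = 0.844), an interval of 0.889 to 1.21 in folds, and after median centring of the arrays in place of quantile normalization it was -0.027.

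Hif1an, the asparaginyl hydroxylase known as FIH, had a higher mean in AA-treated cells on each of its 3 probe sets, and none passed. The brightest, 1428576_at, had signals of 174, 121 and 161 in AA and 152, 108 and 105 in control. The ranges overlapped, and AA was higher in every same-numbered pair, by 0.24, 0.22 and 0.60 on the log2 scale. The fit gave 0.35 (SE 0.13, 95% interval 0.062 to 0.65, adjusted p = 0.183). The dimmer 1447817_at and 1452845_at had signals of 11.3 to 20.0 in AA and 7.24 to 16.6 in control, with log2 differences of 0.53 (SE 0.36, adjusted p = 0.518) and 0.23 (SE 0.40, adjusted p = 0.837). Of these, 1452845_at was designed from the same sequence record as the brightest, and without replicate 3 it read -0.067. Averaged over the 3, the difference was 0.37 (SE 0.21, adjusted p = 0.426).

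Vhl, the subunit that recognizes hydroxylated HIF-alpha for the ubiquitin ligase, was read by 2 probe sets of opposite sign. The brighter, 1434708_at, had signals of 524, 422 and 433 in AA-treated cells and 562, 539 and 528 in control cells. Every AA array lay below every control array, by as little as 524 against 528. The log2 difference was -0.21 (SE 0.089, 95% interval -0.41 to -0.0056, adjusted p = 0.262). The other, 1421071_at, had signals of 50.9, 54.8 and 56.6 in AA and 61.3, 50.1 and 22.6 in control. By pair the differences were -0.24, 0.21 and 1.24, so pair 3, with the low control replicate 3, carried the estimate of 0.40 (SE 0.28, adjusted p = 0.521), which without replicate 3 was -0.015. Averaged over both, Vhl had a difference of 0.097 (SE 0.14, adjusted p = 0.792).

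**Figure D2:**
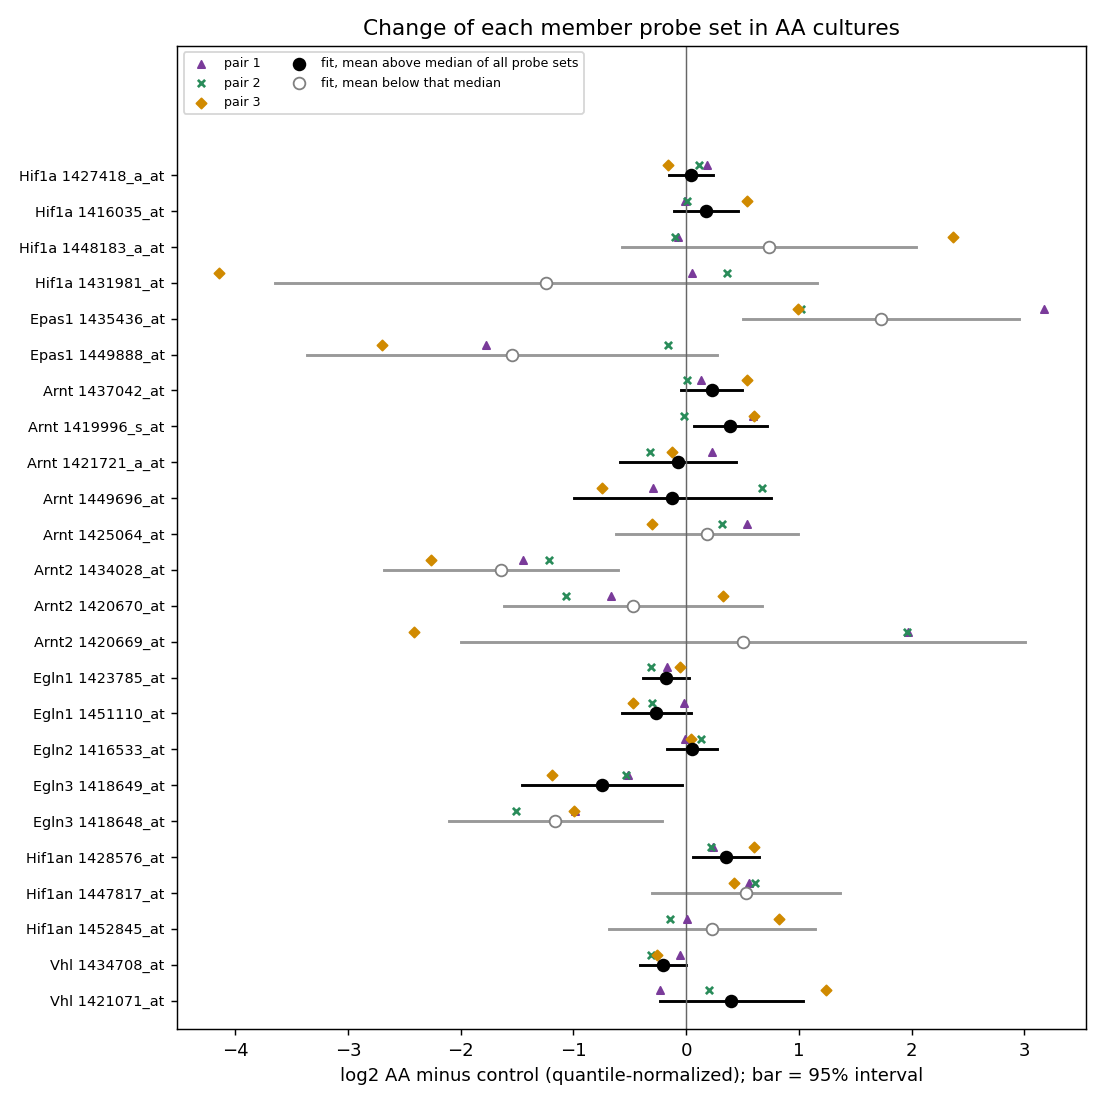
Log2 AA minus control of each of the 24 probe sets after quantile normalization, with its 95% interval from limma (large points, filled where the mean signal was above the median of all) and the differences of the 3 same-numbered culture pairs (small symbols). The brightest probe sets of Hif1a, Egln1, Egln2 and Vhl lie at 0.045, -0.18, 0.054 and -0.21 with short bars, the Epas1 probe sets lie on opposite sides at 1.73 and -1.55, and pair 3 stands away from the other pairs for several probe sets, among them Hif1a 1448183_a_at and Arnt2 1420669_at.

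Of 8 genes that act with Vhl in the ligase, 0 were called by limma, against the 7.89% of all genes given above. The ubiquitin-conjugating enzyme Ube2d1 had a log2 difference of -0.26 (adjusted p = 0.148). The scaffold Cul2 had a log2 difference of -0.018 (adjusted p = 0.950). The adaptor Eloc read -0.11 (adjusted p = 0.542), the adaptor Elob -0.059 (adjusted p = 0.842) and the RING subunit Rbx1 0.038 (adjusted p = 0.972). The list's median was -0.038, against -0.021 over all 18193 genes and 0.045 over the 9. All 8 were brighter than the median probe set, and 3 of the 8 (37.5%) had a higher mean in AA, against 47.7% of all genes.

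Among 18 measured regulators and co-activators of HIF, 1 rose and 1 fell in AA-treated cells (11.1% called, against 7.89% of all genes). Cited2, which competes with HIF-alpha for the co-activators p300 and CBP and is itself a HIF target, fell. Its signals were 860.0, 983 and 972 in AA and 1369, 1612 and 1849 in control, with no overlap. The log2 difference was -0.78 (SE 0.079, adjusted p = 0.00157). Os9, an ER lectin that has been described as a binding partner of HIF-1 alpha, had signals of 595, 499 and 453 in AA and 417, 421 and 373 in control. It lay just inside the threshold, at 0.39 (SE 0.090, adjusted p = 0.0498), and outside it in a fit with no replicate block (adjusted p = 0.0992), on signals as deposited (adjusted p = 0.0792), after median centring (adjusted p = 0.211), with 50 added (adjusted p = 0.0860) and with any 1 pair or array left out (adjusted p = 0.0512 to 0.250). The co-activators Crebbp and Ep300 read -0.38 (adjusted p = 0.0730) and -0.18 (adjusted p = 0.288). Hif3a had a difference of 0.037 (adjusted p = 0.952) and the transmembrane prolyl hydroxylase P4htm one of 0.21 (adjusted p = 0.688). The list's median was -0.10, and 16 of the 18 were brighter than the median probe set. A higher mean in AA was seen for 5 of the 18 (27.8%), against 47.7% of all genes.

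Of 11 other bHLH-PAS proteins, the family to which HIF-alpha and Arnt belong, 0 rose and 1 fell (9.09% called, against 7.89% of all genes). The gene that fell, Ahr, encodes the dioxin receptor, which also pairs with Arnt, and had signals of 364, 376 and 414 in AA-treated cells and 769, 517 and 547 in control cells. All AA arrays lay below all control arrays, with a log2 difference of -0.61 (SE 0.13, adjusted p = 0.0367). The call was lost with 50 added to every signal (adjusted p = 0.0890), without replicate 1 (adjusted p = 0.0776), without replicate 2 (adjusted p = 0.0659), in a fit with no block without any 1 array but control replicate 1 (adjusted p = 0.0572 to 0.156) and by the average of its probe sets (log2 difference -0.20, adjusted p = 0.663). The list's median was 0.12, and 5 of the 11 were brighter than the median probe set. A higher mean in AA was seen for 6 of the 11 (54.5%), against 47.7% of all genes.

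HIF target genes moved in both directions. Of 39 measured, 3 rose and 5 fell in AA-treated cells, and 31, Egln1 and Egln3 among them, did not pass. That is 20.5% called, against 7.89% of all genes. Of the 39, 32 were brighter than the median probe set, against 10822 of all 18193 genes, so these shares were not matched for signal. The collagen prolyl hydroxylase subunit P4ha2 rose, with signals of 1114, 738 and 734 in AA and 442, 382 and 376 in control and a log2 difference of 1.10 (SE 0.098, adjusted p = 0.000897). The phosphofructokinase-2 gene Pfkfb4, at 1.00 (adjusted p = 0.00749), and the transcriptional repressor Bhlhe40, at 0.71 (adjusted p = 0.0131), rose too. The chemokine Cxcl12 fell, with signals of 328, 346 and 289 in AA and 546, 971 and 831 in control and a log2 difference of -1.23 (SE 0.16, adjusted p = 0.00420). The others that fell were the ER oxidase Ero1a, at -0.65 (adjusted p = 0.0116), Ndrg1, at -0.51 (adjusted p = 0.0153), the transferrin receptor Tfrc, at -0.61 (adjusted p = 0.0184), and the glucose transporter Slc2a1, at -0.45 (adjusted p = 0.0301), the last named after its value was seen. Averaged over a gene's probe sets, Cxcl12, Ndrg1 and Tfrc no longer passed (adjusted p = 0.378, 0.189 and 0.918), and Slc2a1 did not pass in a fit with no replicate block (adjusted p = 0.0527). Without replicate 2, Ero1a, Ndrg1 and Slc2a1 did not pass (adjusted p = 0.0990, 0.126 and 0.214), and without control replicate 2 and the block neither did Bhlhe40, Ndrg1, Tfrc and Slc2a1 (adjusted p = 0.0755, 0.0504, 0.0597 and 0.171). With 50 added, Tfrc and Slc2a1 were lost (adjusted p = 0.0505 and 0.0584). Without AA replicate 2 and the block, Ndrg1 and Slc2a1 were lost (adjusted p = 0.0753 and 0.128). Slc2a1 was lost too without replicate 3 (adjusted p = 0.0563) and, with no block, without AA replicate 1, AA replicate 3 or control replicate 3 (adjusted p = 0.159, 0.134 and 0.121). The list's median was -0.25, and 10 of the 39 (25.6%) had a higher mean in AA, against 47.7% of all genes.

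A list of 19 measured genes covered 2-oxoglutarate metabolism, later citric acid cycle steps and iron handling, so not all supply the hydroxylases. Of these, 2 rose, 1 fell and 16 did not pass (15.8% called, against 7.89% of all genes). All 19 were brighter than the median probe set, against 10822 of all 18193 genes, so here too the shares were not matched for signal. Idh1, the cytosolic isocitrate dehydrogenase that makes 2-oxoglutarate, had signals of 3175, 2896 and 2757 in AA-treated cells and 1400, 1499 and 1604 in control cells. The groups were far apart, with a log2 difference of 0.92 (SE 0.081, adjusted p = 0.000888). Ogdh, a subunit of the mitochondrial complex that consumes 2-oxoglutarate, had signals of 409.7, 433 and 462 in AA and 265, 220.4 and 218 in control. All AA arrays lay above all control arrays, with a log2 difference of 0.94 (SE 0.11, adjusted p = 0.00285). The gene that fell was Tfrc, which both lists hold. The iron chaperones Pcbp1 and Pcbp2 did not pass, at 0.070 (adjusted p = 0.653) and -0.12 (adjusted p = 0.387). The list's median was 0.074, and 16 of the 19 (84.2%) had a higher mean in AA, against 47.7% of all genes.

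**Figure D3:**
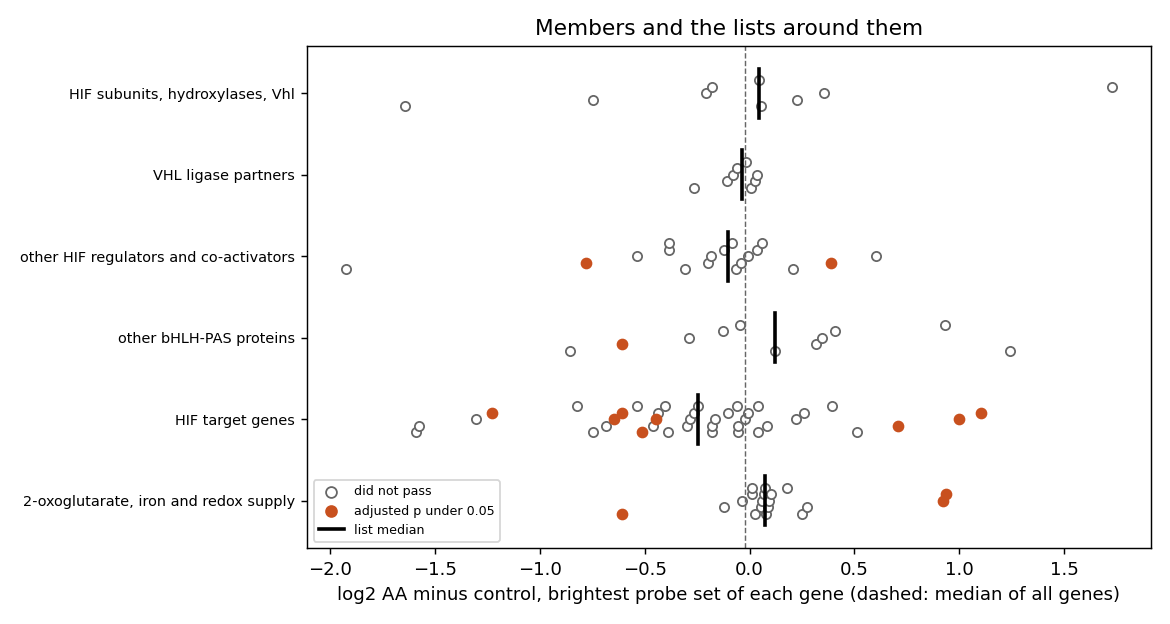
Log2 AA minus control of each measured gene by its brightest probe set, for the 9 genes and the 5 lists around them, with a bar at each list's median and a dashed line at the median of all genes (-0.021). Filled points had an adjusted p under 0.05. The row of the 9 genes has no filled point, and the HIF target genes have 8, on both sides of 0.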

How the data were processed

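Deposited values were linear signal intensity values. MAS5 is the tool that the submitters' processing notes give, without a version, and each array had a mean of 150.0 once 2% was trimmed at either end, whereas the paper's methods name GC-RMA. After removal of 64 control probe sets, log2 signals of the 6 arrays were quantile-normalized and limma 3.58.1 (R 4.3.3) was fitted to 45037 probe sets, with terms for condition and replicate number (the methods name paired tests), 2 residual degrees of freedom and a prior variance that follows the signal. The Benjamini-Hochberg adjustment covered every probe set tested. Differences are AA minus control, and signals are quoted as deposited, so their ratio can differ from the estimate beside them. SE is the standard error.

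The platform annotation gave 1 gene for 34945 of these probe sets, several for 932 and none for 9160, and 0 symbols changed when set against RefSeq (GRCm38.p6). A gene was read by its brightest single-gene probe set unless stated. Named were all 9 genes and, of each list, the genes that passed, up to 4 per direction by smallest p. Slc2a1, as a 5th HIF target that fell, and the list genes given that did not pass were named outside that rule, after their values were seen. The 9 genes and the lists were chosen with earlier results of these data known. The fit was tested on simulated arrays. There, the called probe sets among those simulated to change had the simulated direction, and the share of false calls was above the nominal level. Alternatives are given in the closing section. The number of arrays limits the precision.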

Additional observations from a re-analysis of the deposited data

How the results depend on the processing

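The count of 0 calls among the 24 probe sets held in each of the 17 alternative fits, in which 1 to 8 of the probe sets or genes fitted had an unadjusted p under 0.05. Of these, 1 fit held only the 13 probe sets above the median signal and another the 9 gene means, and 2 of them (no trend, and the methods' t-test after adjustment) called 0 of all 45037. The lowest adjusted p in any of them was 0.0707, for the brighter Epas1 probe set with 50 added. With limma's p at the study's thresholds, an unadjusted p under 0.01 with a fold of 1.5 or more, 0 probe sets were higher and 1 was lower (Arnt2). That is also 1 gene lower. By the methods' paired t-test 0 of the 24 had an unadjusted p under 0.01. All 24 name a single gene, so leaving out shared probe sets changed nothing and gave no separate value. The sign turned in at least 1 alternative for 12 of the 24, in 21 values, none with an adjusted p under 0.05. With 1 pair or array left out, the estimates of those that turned ran from -0.025 to 0.15 for Hif1a 1427418_a_at, -0.0044 to 0.29 for Hif1a 1416035_at, -0.12 to 1.29 for Hif1a 1448183_a_at, -2.18 to 0.21 for Hif1a 1431981_at, -0.22 to 0.052 for Arnt 1421721_a_at, -0.52 to 0.19 for Arnt 1449696_at, -0.11 to 0.51 for Arnt 1425064_at, -0.30 to 1.99 for Arnt2 1420669_at, -0.067 to 0.46 for Hif1an 1452845_at and -0.015 to 0.72 for Vhl 1421071_at. Among these, fitted with no block, Hif1a 1448183_a_at read -0.12 and Hif1an 1452845_at -0.011 without control replicate 3, Arnt 1421721_a_at read 0.012 and Arnt2 1420669_at -0.30 without control replicate 2, Arnt2 1420669_at read -0.18 without control replicate 1, Arnt 1425064_at read -0.11 without AA replicate 1, and Arnt 1449696_at read 0.10 without AA replicate 3. Arnt2 1420669_at read -0.041 with 50 added and Egln2 read -0.027 after median centring, and averaged over probe sets Hif1a read -0.072 and Vhl 0.097. The cause was not tested. Deviations of same-numbered cultures from their group means correlated at 0.182, 0.0251 and 0.0921, and AA replicate 2 correlated best with control replicate 3, so the numbers were not shown to pair the cultures. In the fit with no replicate block 1089 were higher and 1039 lower over all probe sets, and 0 of the 24 were called.

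Over all probe sets the main counts were 1219 higher and 1124 lower in AA, a share of 52.0% higher that was 39.5% after median centring (842 and 1291). With 50 added they were 788 and 655, and by the methods' t-test at an unadjusted p under 0.01 they were 706 and 736. With no trend limma called 0 in each direction (2587 and 2616 at an unadjusted p under 0.05), as did the methods' t-test after adjustment (2612 and 2827), and all list counts were then 0. With 1 pair or array left out the counts ran from 380 to 1169 higher and 339 to 994 lower, with 556 and 410 without replicate 2 as the lowest of the pairs. Of regulators and co-activators, 0 were higher with no replicate block, on signals as deposited, after median centring, with 50 added and by the methods' t-test at p under 0.01, and 2 were higher and 3 lower when only probe sets above the median signal were fitted. With 1 pair or array left out 0 to 1 were higher and 1 to 2 lower. Of other bHLH-PAS proteins, 2 were lower after median centring, above the median signal and at the study's thresholds, and 0 with 50 added, averaged over probe sets and by the methods' t-test. With 1 pair or array left out 0 to 2 were lower. Of HIF target genes, 3 were lower with 50 added, 8 above the median signal and 2 averaged over probe sets, while the methods' t-test gave 0 higher and 1 lower. With 1 pair or array left out 2 to 4 were higher and 2 to 8 lower. Of the 2-oxoglutarate and iron genes, 0 were lower with 50 added, averaged over probe sets and by the methods' t-test, which gave 0 higher. With 1 pair or array left out 0 to 1 were lower. The 13 list genes named that passed the test kept their direction, and 67 of their 221 alternative values lost the call.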
